A study of Arabidopsis thaliana with 9 samples.

Results

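The transcriptome of early heart stage embryos carrying the 35S::*FCA* transgene was compared gene by gene with that of Col-0 embryos of the same stage. Every locus of the deposited transcript quantification was considered, 33603 in all, by summing the estimated counts of its transcript models, and the 18531 loci that passed edgeR's filter on low counts were tested. The data were 6 of the 9 RNA-seq libraries of the study, 3 per genotype, each made from 20 dissected embryos by Smart-seq2 (a protocol that copies and amplifies full-length cDNA from little RNA) and sequenced from both ends with 75-nt reads over 2 runs. Col-0 is the reference accession of *Arabidopsis thaliana*, given as wild type in the sample labels, and it lacks active *FRIGIDA*. The 35S::*FCA* embryos are Col-0 with a transgene that drives *FCA* from the constitutive 35S promoter, so the comparison rests on 1 transgenic genotype and cannot separate the transgene from any other difference that this stock carries. Seeds of both genotypes were stratified for 3 days at 4 °C, and plants grew at 20 to 22 °C with 16 h light and 8 h dark. The 3 libraries of Col *FRI*, whose parents were also vernalized for 6 weeks, were not compared here. Apart from counts printed for a few loci, they entered only a fit that shares the estimate of spread over all 9 libraries. That fit was an alternative and not the main test. The Col *FRI* libraries are reported to spread less than the others, so the shared spread may be too small for this comparison. Calls with 9 libraries below are therefore not separate support.

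FCA is an RNA-binding protein of the autonomous pathway, a group of RNA-processing and chromatin factors that promote flowering. Together with FY, a subunit of the cleavage and polyadenylation machinery, it favours the use of proximal polyadenylation sites, best known at the floral repressor *FLC* and at its own transcript. A heart stage embryo is greening: the cotyledons emerge, chloroplasts form in the embryo, and genes of the photosystems are expressed before the storage proteins and oil bodies of the mature seed accumulate.

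Estimated counts per library ran from 17996274 to 25847613. The sample labels call the replicates biological, and p-values measure the spread between these libraries of pooled embryos. Replicates differed by more than sampling noise, with a median chi-square per gene of 2.85 to 18.2 between pairs, where 1 is sampling noise. The 10 embryo marker genes, *LEC1* and *WOX2* among them, summed to 248 to 300 TPM (read counts scaled by transcript length and library total) in Col-0 and to 277 to 371 TPM in 35S::*FCA*, and none was at 0. Endosperm markers summed to 1.47 to 4.66 and 2.29 to 2.74 TPM, and seed coat markers to 12.3 to 15.3 and 13.1 to 17.7 TPM. Transcripts of organelle genes took 11.9, 13.6 and 22.8% of TPM in the Col-0 libraries and 17.4, 15.8 and 16.2% in the 35S::*FCA* libraries, which overlap (two-sided exact permutation test, p = 1.0). Levels below are CPM, read counts scaled by library total and TMM factor, and fold changes are log2 values of 35S::*FCA* over Col-0 from edgeR.

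*FCA* (AT4G16280) had 8.61, 7.69 and 10.2 CPM in Col-0 and 17.3, 13.6 and 14.1 CPM in 35S::*FCA*. Every 35S::*FCA* library was above every Col-0 library, and the log2 fold change was 0.76 (standard error, SE, 0.15), with an edgeR adjusted p of 0.157 in these 6 libraries and 0.0320 with all 9 libraries in the fit. Counts do not tell transcripts of the transgene from those of the native gene. *FY* (AT5G13480) stood at 21.3, 20.1 and 22.4 CPM in Col-0 and at 29.9, 25.3 and 25.5 CPM in 35S::*FCA*, without overlap (log2 fold change 0.34, edgeR adjusted p = 0.262). The other 5 autonomous pathway genes (*FPA*, *FLK*, *FVE*, *LD* and *FLD*) had log2 fold changes of -0.17 to 0.20, and no member of this pathway passed the test. *FLC* had a log2 fold change of -0.26 (edgeR adjusted p = 0.328; 0.02 in limma on log2 TPM), and the 5 *MAF* genes of its clade had values of -0.42 to -0.01.

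Across the transcriptome few genes passed. At a Benjamini-Hochberg adjusted p under 0.05, edgeR called 8 of 18531 genes (0.0432%), 2 higher (0.0108%) and 6 lower (0.0324%) in 35S::*FCA*. Small differences were far more frequent than calls. Unadjusted p was under 0.05 for 2387 genes (12.9%) and under 0.001 for 115 genes (0.621%), and the 3 libraries of 35S::*FCA* lay all above those of Col-0 for 1629 genes (8.79%) and all below for 1904 genes (10.3%). The median log2 fold change over all genes was -0.01. With all 9 libraries in the fit, 91 genes were called higher (0.495%) and 192 lower (1.05%), together 1.54% of 18371 genes tested in both fits, and all 8 were among them.

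**Figure D1:**
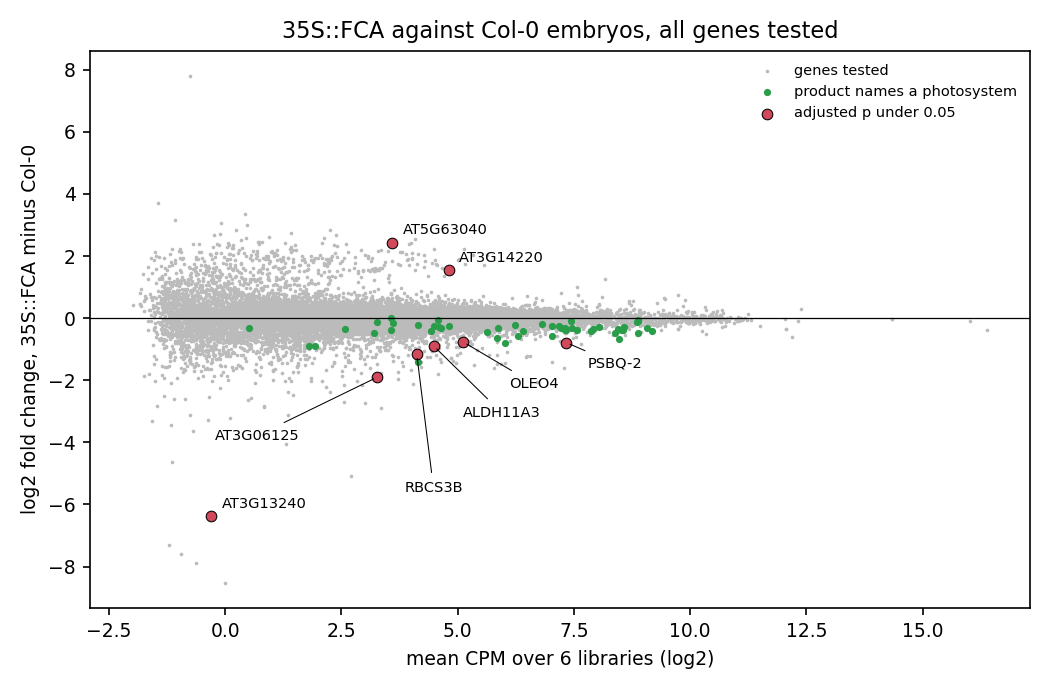
Log2 fold change of 35S::FCA over Col-0 (vertical axis) against log2 of the mean CPM over 6 libraries (horizontal axis), 1 point per gene for 18531 genes, with the 51 tested genes whose product name holds "photosystem" in green and the 8 genes past an edgeR adjusted p of 0.05 in red. The cloud is centred at a median of -0.01, and 50 of the 51 green points lie below 0.

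AT5G63040, an uncharacterized protein-coding gene on the plus strand of chromosome 5 (25288146 to 25290420 in TAIR10.1), had the smallest p. It had 3.87, 3.64 and 3.86 CPM in Col-0 and 19.6, 19.4 and 22.2 CPM in 35S::*FCA*. The genotypes were far apart and the replicates close together, with a difference of 2.43 on the log2 scale (SE 0.11, edgeR adjusted p = 0.000541). It was called in all 15 alternative fits. Its annotated models differ at one intron, and the split of its reads between them differed between genotypes too. Model 2 took 63.9, 70.0 and 52.6% of the gene's TPM in Col-0 and 25.0, 21.2 and 25.7% in 35S::*FCA*, and model 1 took the rest. Model 1 was thus the minor form in each Col-0 library and the major form in each 35S::*FCA* library, a gain of 38.2 percentage points (edgeR diffSpliceDGE adjusted p = 0.00872, but 0.924 when its models were combined by Simes' method). As quantified, model 1 has 1441 bases and model 2 has 1683, more than the acceptors account for. The models thus differ elsewhere too, and their shares cannot be tied to the acceptors alone. The splice sites are printed here because they are where the introns of the models differ. The models share a donor at chr5:25288578-25288607 and use acceptors at chr5:25288884-25288913 (model 2) and chr5:25289014-25289043 (model 1), 130 bases apart, all on the plus strand of TAIR10.1 with exon bases in capitals.
AT5G63040 donor shared by both models: TTCCTTTCAGgtgacaatttcttaatttgt
AT5G63040 acceptor of model 2: tcaataatgctttttattagGTTATGATAA
AT5G63040 acceptor of model 1: ttgtcgtctccaaacttcagTTTCGTTCAC

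AT3G14220 encodes a GDSL-type lipase, of a family of esterases that act on lipids. It had 17.5, 12.4 and 12.9 CPM in Col-0 and 37.0, 45.1 and 43.1 CPM in 35S::*FCA*, a difference of 1.55 on the log2 scale (SE 0.15, edgeR adjusted p = 0.0347). The lowest 35S::*FCA* library was well above the highest Col-0 library. The 6 other called genes fell. *RBCS3B* (AT5G38410), a small subunit gene of the carbon-fixing enzyme Rubisco, had 22.0, 23.0 and 27.2 CPM in Col-0 and 10.7, 10.4 and 11.1 CPM in 35S::*FCA* (log2 fold change -1.16, SE 0.11, edgeR adjusted p = 0.0347). Since 20.7% of its 31-base stretches also occur in other genes, it was read with its close relatives. *RBCS1B*, *RBCS2B* and *RBCS3B* summed to 23.1, 23.7 and 28.8 CPM in Col-0 and to 10.9, 10.7 and 11.3 CPM in 35S::*FCA*, also without overlap. *RBCS3B* alone made up 22.0, 23.0 and 27.2 CPM of the Col-0 sums, so they repeat its values and do not check for shared reads. *RBCS1A* was not in the sum. *PSBQ-2* (AT4G05180), a subunit of the oxygen-evolving complex of photosystem II, fell from 195, 209 and 210 CPM to 123, 116 and 118 CPM (log2 fold change -0.79, SE 0.08, edgeR adjusted p = 0.0347). *ALDH11A3* (AT2G24270), the cytosolic non-phosphorylating glyceraldehyde-3-phosphate dehydrogenase, fell from 27.6, 31.1 and 29.0 CPM to 14.6, 17.1 and 15.2 CPM (log2 fold change -0.90, SE 0.10, edgeR adjusted p = 0.0459). In all 3 genes the groups were separated by far more than the replicates.

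The remaining genes that fell were *OLEO4*, AT3G06125 and AT3G13240. *OLEO4* (AT3G27660) encodes an oleosin, a coat protein of seed oil bodies, and went from 44.5, 41.8 and 45.4 CPM to 26.5, 24.7 and 26.2 CPM (log2 fold change -0.77, SE 0.08, edgeR adjusted p = 0.0347). AT3G06125, a locus annotated as another kind of RNA without a protein, went from 14.7, 13.6 and 17.7 CPM to 3.06, 5.08 and 4.05 CPM (log2 fold change -1.90, SE 0.20, edgeR adjusted p = 0.0347). AT3G13240, an uncharacterized protein-coding gene, had 44, 36 and 30 counts in Col-0 and 0, 1 and 0 counts in 35S::*FCA*, and is described with its neighbours below. Apart from AT5G63040, these calls were at the edge of what 3 libraries per genotype can show. With a single library left out, of the 8 genes only AT5G63040 stayed past the threshold, whichever library it was, together with AT3G14220 when Col-0 replicate 1 was left out. Over these fits the highest adjusted p of the 7 genes was 0.389 to 0.457, always without 35S::*FCA* replicate 3, while the log2 fold change ran from -0.82 to -0.77 for *PSBQ-2*, from 1.46 to 1.72 for AT3G14220 and from -8.19 to -5.83 for AT3G13240, which has almost no counts in 35S::*FCA*. In limma on log2 TPM, *RBCS3B*, *PSBQ-2*, *OLEO4* and *ALDH11A3* were not called, with adjusted p of 0.0861 to 0.327 with 1 TPM added, and AT3G14220 had an adjusted p of 0.0548.

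**Figure D2:**
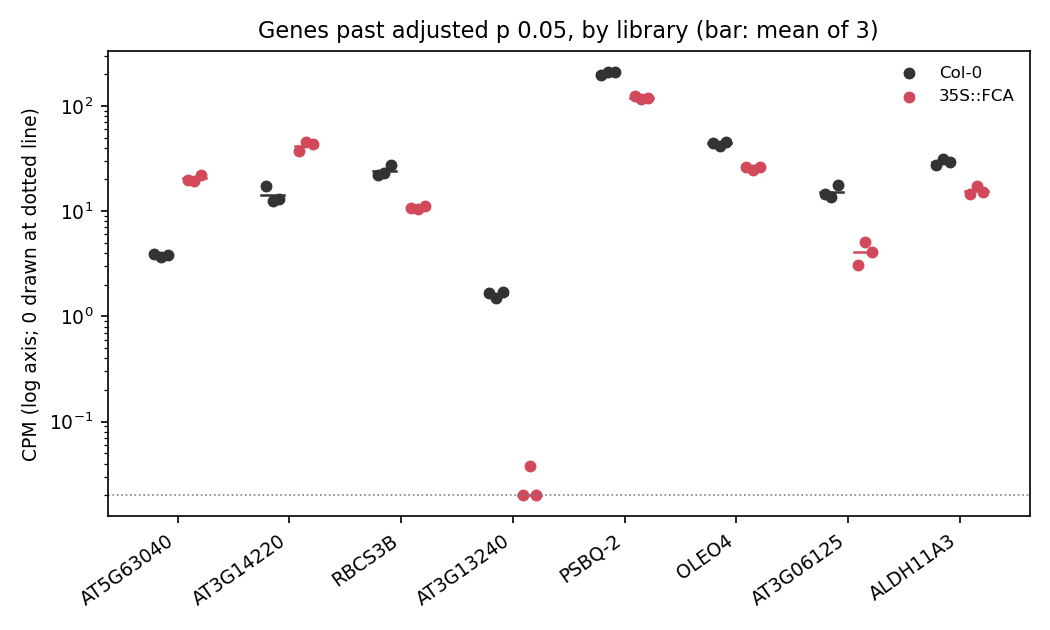
CPM on a log axis for the 8 genes past an edgeR adjusted p of 0.05, with 1 point per library, 3 Col-0 (black) and 3 35S::FCA (red) libraries per gene, a bar at each mean, and libraries with 0 counts drawn on the dotted line. In each gene the points of the genotypes are separate, from 3.64 to 3.87 against 19.4 to 22.2 CPM for AT5G63040.

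Genes just outside the threshold were named in order of p only if the genotypes did not overlap and the fold was over 2, so large changes were required. Among lower genes these were *DYL1* (AT1G28330, log2 fold change -2.04, edgeR adjusted p = 0.0697), AT3G15450 (-1.59, 0.0697), *PME3* (AT3G14310, a pectin methylesterase of the cell wall, -1.53, 0.0721) and AT1G38065 (57, 30 and 45 counts in Col-0 and 0 in every 35S::*FCA* library, adjusted p = 0.0953). AT1G38065 was at least 14.2-fold lower when set against a floor of 3 counts per library, but 96.8% of its 31-base stretches occur in other genes, so its reads may be shared out differently. Among higher genes, the 8 next in order by the same rule were not past the test. They were TPS-CIN (AT3G25830), *OFP18*, *SPX1*, AT4G28775, *G3Pp1*, AT5G53110, *PSK4* and AT2G12475, with adjusted p of 0.120 to 0.147. *OFP18* encodes an ovate family protein and had 1.37, 1.41 and 1.14 CPM in Col-0 and 3.06, 4.01 and 3.94 CPM in 35S::*FCA*. *PSK4* encodes a precursor of the growth peptide phytosulfokine and had 1.37, 1.45 and 3.46 CPM against 8.70, 6.88 and 7.15 CPM. The groups did not overlap in either gene, and DESeq2 called both (adjusted p = 0.00173 and 6.30e-05).

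The genes of the photosynthetic apparatus were lower in 35S::*FCA* as a group. Of 51 tested genes whose product name holds "photosystem", 50 had a fold change below 0 and 41 had all 3 35S::*FCA* libraries below all 3 Col-0 libraries (80.4%, against 10.3% of all genes). Their median log2 fold change was -0.33, against -0.01 over all genes. Only 1, *PSBQ-2*, passed the test with 6 libraries, and 17 were called lower and 0 higher with all 9 libraries in the fit. This list was added after values were seen. The summed level was 9237, 9634 and 9514 CPM in Col-0 and 7883, 7207 and 7323 CPM in 35S::*FCA*, a Col-0 level 1.27 times that of 35S::*FCA*. The shift was thus small per gene and shared by most genes, and it stayed between -0.38 and -0.32 with any library left out. In bulk libraries, fewer green cells and less of these transcripts per cell cannot be told apart.

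The light-harvesting proteins, which bind most chlorophyll and pass energy to the photosystems, gave the clearest case. All 13 tested *LHCA* and *LHCB* genes had fold changes below 0 (median -0.44), 12 of them without overlap (92.3%, against 10.3% of all genes). They summed to 3137, 3580 and 3113 CPM in Col-0 and 2456, 2540 and 2474 CPM in 35S::*FCA*. *LHCB3* (AT5G54270) had 262, 287 and 275 CPM in Col-0 and 196, 184 and 182 CPM in 35S::*FCA* (-0.55 on the log2 scale, edgeR adjusted p = 0.120). Every 35S::*FCA* library was below the lowest Col-0 library. *LHCB2.2* (AT2G05070) had the largest difference of the family, with 18.2, 26.4 and 32.0 CPM against 13.98, 7.42 and 7.88 CPM (-1.40, adjusted p = 0.175), and *LHCB4.1* (AT5G01530) the smallest, with 459, 519 and 474 CPM against 438, 440 and 443 CPM (-0.14, adjusted p = 0.588). The range within the family was therefore wide, and *LHCB4.3* was the member that overlapped between genotypes. No *LHC* gene passed edgeR's test with 6 libraries, although 11 had an unadjusted p under 0.05, and 7 passed with 9.

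The nuclear subunits of photosystem I and photosystem II moved by similar amounts. Of 14 tested genes with a *PSA* symbol, 12 lay without overlap below Col-0 (85.7%, against 10.3% of all genes, median -0.36), and those 12 are the photosystem I subunits. The remaining ones are homonyms with other products, *PSAT* (log2 fold change -0.05) and *PSAT1* (0.45). *PSAD-2* (AT1G03130), which docks ferredoxin at photosystem I, had 97.1, 89.1 and 95.3 CPM in Col-0 and 67.8, 59.3 and 61.2 CPM in 35S::*FCA* (-0.58 on the log2 scale, edgeR adjusted p = 0.111). Its paralog *PSAD-1* (AT4G02770) had 397, 388 and 394 CPM against 289, 274 and 277 CPM (-0.49, adjusted p = 0.136). Both stood clearly apart between genotypes. Of 14 *PSB* genes, 11 lay below Col-0 without overlap (78.6%, median -0.34), with *PSBQ-2* called. *PSBO2* (AT3G50820), a manganese-stabilizing subunit of the oxygen-evolving complex, had 64.8, 74.1 and 73.2 CPM against 39.97, 50.5 and 45.2 CPM (-0.64, adjusted p = 0.125). Its paralog *PSBO1* had a log2 fold change of -0.35, and *PSBX*, *PSBTN* and *PSBP-2* overlapped between genotypes.

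Enzymes that make chlorophyll and fix carbon shared the direction. Of 21 chlorophyll synthesis genes, 20 had a fold change below 0 (median -0.27) and 12 did not overlap (57.1%, against 10.3% of all genes), and with 9 libraries 3 were called. *G4* (AT3G51820), the chlorophyll synthase, had 43.1, 48.3 and 44.4 CPM in Col-0 and 29.8, 30.2 and 32.6 CPM in 35S::*FCA* (-0.55 on the log2 scale, edgeR adjusted p = 0.116). *PORB* (AT4G27440), a light-dependent protochlorophyllide reductase, had 132, 149 and 109 CPM against 86.5, 85.0 and 89.9 CPM (-0.58, adjusted p = 0.176), and the third, *CH1*, is chlorophyllide a oxygenase, which makes chlorophyll b (-0.53). All of these were below Col-0 in each library. Of 18 Calvin cycle genes, 11 were lower without overlap (61.1%), 1 was higher without overlap (5.56%, against 8.79% of all genes), and the median was -0.32. The chlorophyll and Calvin cycle lists were added after values were seen, and the latter holds the already called *RBCS3B*. *SBPASE* (AT3G55800), sedoheptulose bisphosphatase, had 76.5, 76.2 and 70.96 CPM against 47.8, 52.5 and 52.0 CPM (-0.55, adjusted p = 0.103), and *GAPA* (AT3G26650), the chloroplast glyceraldehyde-3-phosphate dehydrogenase, 126, 149 and 141 CPM against 97.1, 96.1 and 96.9 CPM (-0.52, adjusted p = 0.136). *RBCS1A*, the main small subunit gene, stood at 1862, 1814 and 1767 CPM against 1529, 1441 and 1461 CPM (-0.30, adjusted p = 0.364). The gene higher without overlap was *CP12-2*, a regulator of the cycle, at 0.827 to 1.03 CPM in Col-0 and 1.18 to 1.92 CPM in 35S::*FCA*.

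Regulators of greening and the genes of the plastid genome gave no such separation. The 6 tested regulators (*GPRI1*, also known as *GLK1*, *GLK2*, *GNC*, *HY5*, *PIL5* and *PIF3*) had log2 fold changes of -0.29 to 0.37 with a median of 0.02, and all overlapped between genotypes. Of 131 tested chloroplast-encoded genes none was called, none had an unadjusted p under 0.05, and none lay outside the range of the other genotype in all 3 libraries. Their median was -0.10, but it ran from -0.31 to 0.32 with single libraries left out, and the positive value came without Col-0 replicate 3, the library with most organelle RNA. Of 106 mitochondria-encoded genes 1 was lower without overlap (median -0.16, and 0.42 without Col-0 replicate 3). Among 14 tested PTAC genes, which encode proteins of the transcriptionally active chromosome of plastids, 5 were lower without overlap (35.7%, against 10.3% of all genes, median -0.21). *PTAC16* (AT3G46780) had 15.0, 15.6 and 13.5 CPM in Col-0 and 7.08, 8.33 and 8.58 CPM in 35S::*FCA* (-0.87, edgeR adjusted p = 0.0988). Of 12 tested fibrillins, lipid-binding proteins of plastid plastoglobules, 7 were lower without overlap (58.3%, against 10.3% of all genes) and 1 was higher (8.33%), with a median of -0.22. AT1G51110 had the largest difference of these, with 5.50, 4.38 and 3.97 CPM against 2.04, 2.22 and 1.80 CPM (-1.19, adjusted p = 0.141).

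**Figure D3:**
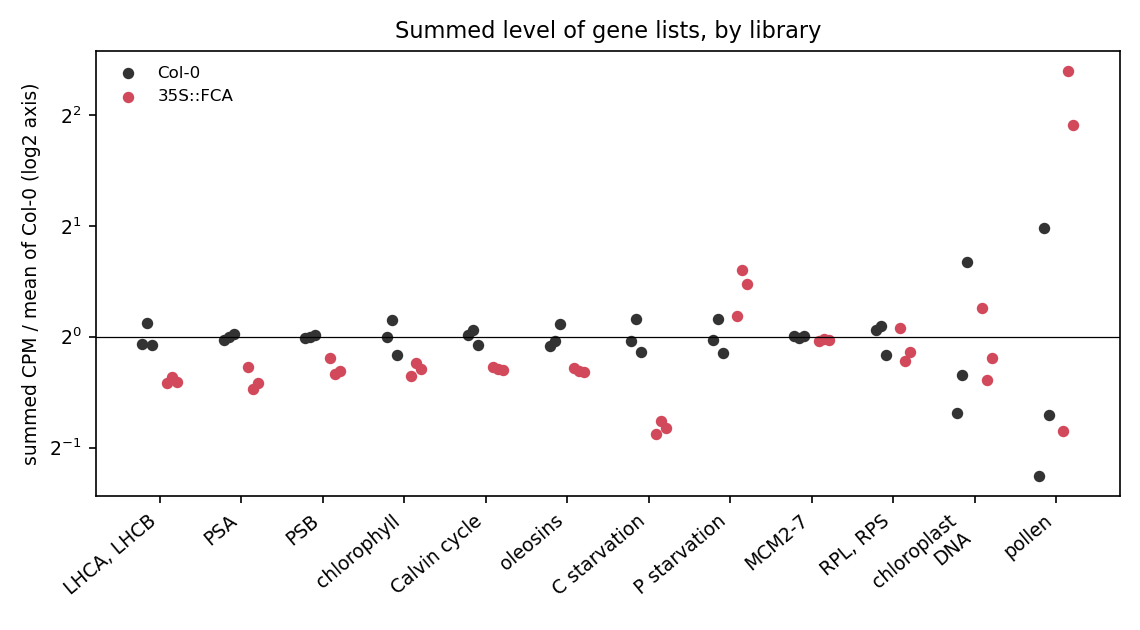
Summed CPM of the tested members of 12 gene lists, each divided by the mean of the 3 Col-0 libraries (log2 axis), with 1 point per library, Col-0 in black and 35S::FCA in red. The lists of light-harvesting proteins, both photosystems, chlorophyll, Calvin cycle, oleosins, carbon starvation, phosphate starvation and *MCM* genes are separate between genotypes. The light-harvesting proteins had 3113 to 3580 CPM in Col-0 against 2456 to 2540 CPM in 35S::FCA. The *MCM* genes were also separate, with only 298 to 302 against 292 to 296 CPM. The pollen list spreads widely within both genotypes.

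Oleosins, the coat proteins of oil bodies, lay on the same side. Of 11 tested oleosins, all had fold changes below 0 (median -0.48) and 8 did not overlap (72.7%, against 10.3% of all genes), with *OLEO4* called. This list was added after values were seen and holds the already called *OLEO4*, so its direction is partly built in. The 11 oleosins summed to 523, 539 and 602 CPM in Col-0 and 455, 448 and 444 CPM in 35S::*FCA*. AT3G01570 had 8.43, 8.02 and 17.5 CPM against 4.56, 4.78 and 4.24 CPM (log2 fold change -1.31, edgeR adjusted p = 0.209), and *OLEO3* had 298, 302 and 340 CPM against 279, 262 and 262 CPM (-0.23, adjusted p = 0.382). Separation was narrow in *OLEO3* and wide in AT3G01570. Of 10 seed storage and oleosin genes only 5 passed the filter, since most storage proteins were near 0 counts at this stage. *CRA1* (AT5G44120), a 12S cruciferin, had 16, 15 and 11 counts in Col-0 and 1, 0 and 3 counts in 35S::*FCA*. The ratio was 10.3, with a 95% exact interval of 3.75 to 39.7 that covers counting error only. *CRA1* was not called (edgeR adjusted p = 0.191). Of 35 tested genes named as late embryogenesis abundant, which protect the drying seed, 7 were lower (20.0%, against 10.3% of all genes) and 1 was higher without overlap (median -0.17, and -0.06 without Col-0 replicate 2). They did not move one way, since 12 of the 35 had fold changes above 0, up to 2.37, and the single gene called with 9 libraries, AT2G46150, was higher. Of the embryo regulators, *LEC1* stood at 182, 173 and 194 CPM in Col-0 and at 212, 216 and 216 CPM in 35S::*FCA* (0.23, adjusted p = 0.341), while *LEC2*, *FUS3*, *ABI3* and *BBM* overlapped between genotypes. The *LEC1* relative *NF-YB6* (AT5G47670) was lower without overlap, with 9.94, 10.8 and 16.9 CPM against 9.54, 9.21 and 9.24 CPM (-0.42, adjusted p = 0.419).

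A carbon starvation list and a phosphate starvation list had medians on opposite sides of 0. Both lists were added after values were seen and hold genes already named above for their small p (*DYL1*, AT3G15450, *SPX1* and *G3Pp1*). Their directions are thus partly built in, and they are a description. Of 10 tested genes of a carbon starvation list all had fold changes below 0 (median -0.41), 5 without overlap, and they summed to 269, 309 and 250 CPM in Col-0 and 150, 163 and 156 CPM in 35S::*FCA*, a Col-0 level 1.76 times higher. *DYL1*, a dormancy-associated gene, had 6.68, 5.50 and 5.17 CPM against 1.62, 1.57 and 1.07 CPM. AT3G15450, of the aluminium-induced proteins with YGL and LRDR motifs, had 106, 82.9 and 59.2 CPM against 28.0, 27.7 and 26.7 CPM. Both were well separated, as were AT4G27450 (-1.16, edgeR adjusted p = 0.110), *AILP1* (-0.62, 0.255) and *EXL2* (-0.67, 0.219), whereas the 4 tested trehalose phosphate synthase genes *TPS8* to *TPS11* and *DIN10* had values of -0.19 to -0.03 and overlapped. No member was called with 6 libraries, and 4 were with 9. Of 10 tested phosphate starvation genes, 8 had fold changes above 0 (median 0.28), 4 without overlap. *SPX1* (AT5G20150), a phosphate sensor that binds the transcription factor PHR1, had 1.86, 4.51 and 2.10 CPM in Col-0 and 8.22, 13.95 and 10.98 CPM in 35S::*FCA* (1.96, adjusted p = 0.137). *G3Pp1* (AT3G47420), a glycerol-3-phosphate transporter, had 0.835, 1.16 and 0.397 CPM against 2.88, 4.13 and 3.28 CPM (2.08, adjusted p = 0.141). The others without overlap were *PAP17*, an acid phosphatase (1.32), and *PHF1*, which helps phosphate transporters leave the endoplasmic reticulum (0.45), while 6 of the 16 listed genes, *IPS1* and *PHT1;1* among them, did not pass the filter.

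Gene families were also compared by shared symbol. Among 114 symbol stems with at least 10 tested members, the TCP transcription factors had the lowest median, -0.39 over 12 genes, one of which, *TCP-1*, is a chaperonin subunit with the same letters. In the CIN class of TCP factors, which restrain cell division in leaves and cotyledons, 5 of 7 tested members were lower without overlap (71.4%, against 10.3% of all genes, median -0.63). This list was added after values were seen, so its direction is partly built in and it is a description. *TCP5* (AT5G60970) had 3.68, 4.34 and 5.11 CPM in Col-0 and 1.5005, 2.03 and 1.66 CPM in 35S::*FCA* (-1.33, edgeR adjusted p = 0.136). *PTF1*, also known as *TCP13* (AT3G02150), had 15, 15 and 25 counts against 1, 0 and 1 counts, a ratio of 27.1. Its 95% exact interval of 7.14 to 229 covers counting error only, and the gene was not called (edgeR adjusted p = 0.136). *TCP2* and *TCP24* overlapped between genotypes. The next stems from the bottom were ERF (-0.28 over 18 genes, 2 lower and 1 higher without overlap), ERD (-0.25 over 12, 4 lower, 33.3%), PTAC and RTFL (-0.20 over 11, 1 lower). The shares lower without overlap in ERF (11.1%) and RTFL (9.09%) were near the 10.3% of all genes, and *ERF1-1*, *ERF1-2* and *ERF1-3*, the last being the higher one, are eukaryotic release factors with the same letters. *ERD5* (AT3G30775), a proline dehydrogenase, had 74.7, 83.1 and 69.3 CPM against 45.3, 58.8 and 50.3 CPM (-0.56, adjusted p = 0.185).

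At the other end stood families of small secreted peptides. RALFL, peptides of the rapid alkalinization family, had the highest median, 1.28 over 12 tested genes, but only 1 of them, *RALFL22*, was without overlap. *RALFL8* (AT1G61563) had 3.72, 35.7 and 9.71 CPM in Col-0 and 6.54, 94.4 and 63.5 CPM in 35S::*FCA*. The high libraries were Col-0 replicate 2 and 35S::*FCA* replicates 2 and 3. The same libraries were high in 17 pollen markers, which summed to 18.2, 89.3 and 21.8 TPM in Col-0 and 21.8, 255 and 172 TPM in 35S::*FCA*, and *RALFL4* and *RALFL19* are themselves in that list, as are *AGP6* and *AGP11* of the arabinogalactan proteins. The RALFL median was 2.61 without Col-0 replicate 2 and was 0.76 at its lowest. The part of pollen RNA in these values was not tested. No pollen marker passed the test.

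Defensin-like peptides, cysteine-rich proteins of defence and reproduction, were higher in another pattern. Of 27 tested genes whose product names a defensin, 20 had fold changes above 0 (median 0.66), and 8 were higher and 0 lower without overlap, that is 29.6% against 8.79% of all genes. AT2G12475 had 0.228, 0.124 and 0.227 CPM in Col-0 and 1.32, 0.765 and 1.03 CPM in 35S::*FCA* (2.39, edgeR adjusted p = 0.147), and each Col-0 value came from 3 to 6 counts. AT1G77525 had 112, 79.1 and 135 CPM against 243, 147 and 178 CPM (0.80, adjusted p = 0.262). The separation of AT1G77525 was small beside the spread, and the median of the list was 0.28 without Col-0 replicate 2 and 1.51 without Col-0 replicate 3. In the LCR stem, low-molecular-weight cysteine-rich proteins that mostly belong to the same class, 5 of 23 tested genes were higher without overlap (21.7%). The median was 0.68, from 0.39 to 1.39 with single libraries left out, and one of these 5, AT1G27340, is an F-box gene with the same letters. ENODL, early nodulin-like cell surface proteins, had 5 of 15 genes higher (33.3%) and 2 lower (13.3%, against 10.3% of all genes) without overlap (median 0.20). AGP had 5 of 25 higher (20.0%) and 1 lower (4.00%), with a median of 0.15. *AGP14* had 2.43, 2.15 and 1.76 CPM in Col-0 and 6.42, 4.05 and 4.68 CPM in 35S::*FCA* (1.24, adjusted p = 0.170). PERK, receptor-like kinases of the cell wall, completed the 5 highest stems (0.18 over 13), with 1 gene higher (7.69%) and 2 lower (15.4%) without overlap. *PERK4* (AT2G18470), the PERK gene with the largest difference, had 0.228, 1.12 and 0.227 CPM in Col-0 and 0.240, 4.43 and 3.72 CPM in 35S::*FCA*, high in the same libraries as the pollen markers, whose part in it was not tested.

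Genes of DNA replication, the cell cycle and RNA processing had medians near that of all genes. The 5 tested *MCM* genes of the replicative helicase had a median of -0.05 and summed to 298 to 302 CPM in Col-0 and 292 to 296 CPM in 35S::*FCA*. Of 27 tested cyclins 1 was higher (3.70%) and 2 were lower (7.41%) without overlap (median 0.01). Among 21 subunits of the cleavage and polyadenylation machinery, the complex through which FCA acts, the median was 0.03, and 2 were higher and 2 lower without overlap. These shares, 9.52% each, are near the 8.79% higher and 10.3% lower of all genes. The lower ones were *CPSF73-II* (-0.27) and *FIP1[V]* (-0.08), and the lowest value of the list, -1.09 for AT1G66500, came with overlapping genotypes. Besides *FY*, the higher one was *nPAP* (AT4G32850), a poly(A) polymerase, with 16.9, 20.1 and 24.8 CPM in Col-0 and 29.1, 29.0 and 27.7 CPM in 35S::*FCA* (0.48, edgeR adjusted p = 0.258). Of 43 cytosolic ribosomal protein genes with an *RPL* or *RPS* symbol, 36 had fold changes below 0 (median -0.12), and 9 were lower (20.9%, against 10.3% of all genes) and 2 higher without overlap. Clock genes had a median of -0.30 over 9 tested, and this median ran from -0.37 to -0.12 with single libraries left out. *PRR5* (-0.47) and *ELF3* (-0.44) were lower without overlap (22.2%, against 10.3% of all genes). Medians were 0.03 over 31 WRKY, -0.17 over 42 MYB, -0.17 over 15 IAA and -0.03 over 15 HSP genes, and no gene of these families was called. Without overlap, 10 MYB genes were lower (23.8%, against 10.3% of all genes) and 1 was higher (2.38%). For IAA 3 were lower (20.0%) and 1 was higher (6.67%), and for HSP 2 were lower (13.3%) and 1 was higher (6.67%). For WRKY 5 were higher (16.1%, against 8.79%) and 2 were lower (6.45%). Of the SAUR genes 2 passed the filter, with values of 0.01 and 0.48. The 321 tested pseudogenes had a median of -0.01 (0.22 without Col-0 replicate 3), with 30 higher (9.35%) and 14 lower (4.36%) without overlap.

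A few genes were present in one genotype and near 0 in the other. With at least 10 counts in all 3 libraries of one genotype and at most 3 in each of the other, 9 loci were lost in 35S::*FCA* and 4 were gained, out of 17396 loci with at least 10 counts in every Col-0 library and 17455 in every 35S::*FCA* library. Of the lost loci, 4 form a run on chromosome 3 (chr3:4275463-4288332 in TAIR10.1). They are AT3G13240 and the pseudogenes AT3G13250, AT3G13260 and AT3G13270. AT3G13240 had 110 counts over the Col-0 libraries and 1 over the 35S::*FCA* libraries, a ratio of 108 with a 95% exact interval of 19.0 to 4314 (edgeR adjusted p = 0.0347). The pseudogenes were at 0 in 35S::*FCA* throughout, though not called (edgeR adjusted p of 0.0988 to 0.136). They were at least 9.06-fold, 6.10-fold and 7.45-fold lower against a floor of 3 counts per library. Flanking genes did not share this. *DDI1*, the next gene upstream, had 696, 712 and 394 counts in Col-0 and 506, 813 and 877 in 35S::*FCA*, and AT3G13275, the next downstream, had 62, 76 and 61 against 50, 65 and 67. The other lost loci were AT1G38065, *PTF1*, *CRA1*, *CLE41* (AT3G24770), which encodes the TDIF peptide that maintains vascular stem cells, and a terpene synthase gene. *CLE41* had 20, 19 and 34 counts against 2, 1 and 3 (ratio 11.97, interval 5.24 to 33.7) and was not called (edgeR adjusted p = 0.137). Some of these loci were also low in Col *FRI*, with 2, 1 and 1 counts for *CLE41*, 3, 1 and 2 for *CRA1* and 0, 2 and 6 for AT1G38065, while AT3G13240 had 19, 17 and 27.

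The terpene synthase pair could not be read gene by gene. The TPS-CIN genes AT3G25820 and AT3G25830 encode near-identical 1,8-cineole synthases, and all 31-base stretches of AT3G25830 occur in other genes. AT3G25820 had 12, 23 and 19 counts in Col-0 and 0, 2 and 3 in 35S::*FCA*, and AT3G25830 had 0 in each Col-0 library and 11, 43 and 34 in 35S::*FCA*. The gain of one and the loss of the other are therefore uncertain. The remaining gained loci were AT1G31390, a TRAF-like gene (4 counts over Col-0, 34 over 35S::*FCA*), AT3G59610, an F-box and jacalin lectin gene (7 and 42 counts) and AT5G52140, a RING/U-box gene (3 and 43 counts). At least 10 counts per library in the upper group is the rule that picked these loci, so it does not show that they differ. AT1G31390 and AT3G59610 did not pass the filter on low counts and were not tested. AT5G52140 was not called (edgeR adjusted p = 0.216). For AT5G52140 the ratio was 14.6, with an interval of 4.66 to 73.4.

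Changes were unevenly spread over the genome. Of 62 windows of 2 Mb, the one from 4 to 6 Mb on chromosome 3 held 13 genes with an unadjusted p under 0.001 among 410 tested (3.17%, against 0.621% of all genes), and the other windows held 0 to 5, with a median of 1. This window was singled out by these counts, so they are a description. It holds the run just described and 2 of the 8 called genes, AT3G13240 and AT3G14220. *PME3* (9.79, 9.39 and 7.55 CPM in Col-0 against 3.54, 2.52 and 3.24 CPM) and AT3G15450 lie in it as well. With all 9 libraries in the fit 18 of its genes were called (4.39%, against 1.54% of all genes), and 0 to 10, median 5, in the other windows. Shares were higher in windows with few tested genes, at 12 to 14 Mb on chromosome 3 (1 of 12, 8.33%) and 14 to 16 Mb on chromosome 1 (1 of 16, 6.25%). Members of the 4 to 6 Mb window moved both ways, with NANA (AT3G12700), an aspartyl protease, at 1.91 and *IDD11* (AT3G13810), a zinc finger transcription factor, at -0.86.

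**Figure D4:**
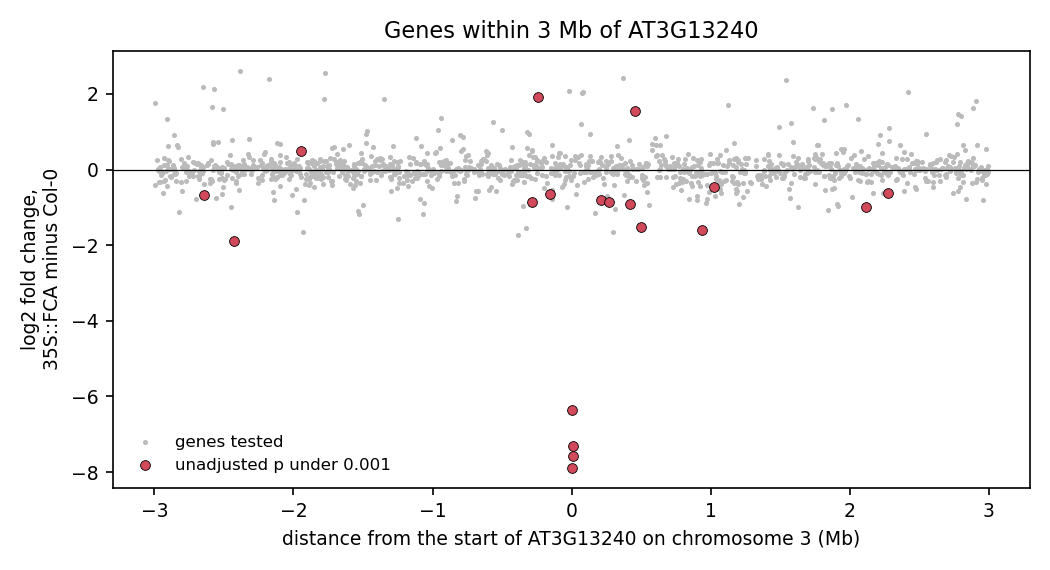
Log2 fold change of 35S::FCA over Col-0 (vertical axis) against the distance in Mb from the start of AT3G13240 along chromosome 3 (horizontal axis), with 1 grey point per tested gene and red points for an unadjusted p under 0.001. The 4 lowest points at distance 0 are AT3G13240 and 3 pseudogenes, between -7.89 and -6.37, and further red points lie on both sides of 0 around them.

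Isoform use was tested in 3500 genes with at least 2 expressed models, and 28 passed (0.8%, edgeR diffSpliceDGE adjusted p under 0.05), 27 besides *FCA*. *FLC* did not pass (adjusted p = 0.183), but some of its shares were apart. Its model 1 took 39.1, 44.2 and 34.4% of its TPM in Col-0 and 14.2, 30.8 and 23.8% in 35S::*FCA*. The entry T2 took 30.2, 29.9 and 28.8% against 39.6, 40.3 and 39.6%, while the entry T1 overlapped between genotypes. In the 27 called genes besides *FCA*, the gained and the lost model of a gene, compared by intron, differed by a retained intron in 11 genes, an alternative acceptor in 10, an alternative donor in 5 and a skipped exon in 2, and some genes had more than 1 of these. The model with the largest gain changed by 1.41 to 50.2 percentage points of the gene's TPM (median 12.2), and by under 10 points in 10 genes. In 14 genes the coding sequence of the gained and the lost model differed. Only AT5G63040 was also called at gene level. In 22 of the 27 genes the most changed model was under 0.5% of TPM in all libraries of one genotype, 12 in 35S::*FCA* and 10 in Col-0, and in 23 both the gained and the lost model did not overlap between genotypes. These shares are kallisto's estimates, which divide reads that match several models, and reads over single splice junctions were not analysed here. Of the 27, 13 were called with all 9 libraries, 15 by Simes' method, and 8 in each of the 6 fits without 1 library.

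*AKINBETA1* (AT5G21170), a beta subunit of the SnRK1 kinase that senses low energy, had the smallest p. Model 2 took 7.66, 9.32 and 12.7% of its TPM in Col-0 and 0% in each 35S::*FCA* library, where 415 to 723 counts were all assigned to model 1. The adjusted p was 0.00275 (diffSpliceDGE). Model 1 skips an exon of 111 bases in the coding region. As quantified, model 1 has 1265 bases and model 2 has 1271, so the models differ elsewhere too. The skipped exon is printed here with its flanks because the introns of the models differ there. It lies on the plus strand of TAIR10.1 within chr5:7207204-7207354, with the exon in capitals.
AKINBETA1 exon skipped in model 1: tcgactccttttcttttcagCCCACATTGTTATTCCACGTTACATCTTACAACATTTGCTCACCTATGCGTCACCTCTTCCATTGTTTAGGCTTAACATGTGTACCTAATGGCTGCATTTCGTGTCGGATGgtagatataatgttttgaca

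Other genes with a low p followed the same pattern of a minor model that was seen in 1 genotype. *RAB8* (AT3G53610), a small GTPase of secretion, gained a model that took 0, 0 and 0.30% in Col-0 and 9.29, 12.3 and 15.4% in 35S::*FCA* (diffSpliceDGE adjusted p = 0.00275). In AT1G75170, a Sec14-like phosphatidylinositol transfer protein, the main model 1 went from 71.2, 87.2 and 62.0% to 100% in each 35S::*FCA* library, while model 2, which splices out an intron that model 1 retains, went to 0%. *SAB* (AT1G58250), a large protein needed for cell expansion, gained a second model at 8.98, 8.65 and 12.7% that was at 0% in Col-0 (adjusted p = 0.00639, but 0.192 with 9 libraries). *RPA1A* (AT2G06510), a subunit of the single-stranded DNA-binding complex of replication, lost a model that had taken 13.1, 13.9 and 9.74% (adjusted p = 0.00815, and 0.140 with 9 libraries). *CPN60B* (AT1G55490), a chaperonin of the plastid, lost a model at 2.98, 2.97 and 6.75%, resting on 111 to 127 counts per library (adjusted p = 0.00669). In each the libraries of the genotypes were apart, and it was the low abundance or absence of 1 model that set them apart. The other genes of the 10 with the smallest p were AT1G18700, AT1G09730, AT2G43210 and AT1G66260, and for AT1G66260 the change was only 1.87 points.

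Several genes had larger changes but larger p. *SDP1-LIKE* (AT3G57140), a homolog of the triacylglycerol lipase SDP1, had model 2 at 39.3, 75.3 and 33.6% in Col-0 and at 100, 97.6 and 100% in 35S::*FCA* (diffSpliceDGE adjusted p = 0.0219, from 0.0247 to 0.130 with a library left out). *PAH1* (AT3G09560), a phosphatidate phosphatase of lipid synthesis, had model 2 at 0 to 0.04% in Col-0 and 11.4, 42.2 and 34.5% in 35S::*FCA* (adjusted p = 0.00974, up to 0.125). *SPL10* (AT1G27370), a transcription factor that miR156 restrains in embryos, had the largest gain, 50.2 points, but from only 9.18 to 25.5 counts in a 35S::*FCA* library, and it was called in none of the fits without 1 library. In all 3 genes the shares of a genotype differed widely between replicates.

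In *ECT2* and *BCAT3* the introns of the gained and lost models differ by a few bases at one acceptor. These sites are printed to show how close they are. The quantified *ECT2* models differ by 51 bases in length, so they differ outside the acceptor too, and their shares cannot be tied to it alone. *ECT2* (AT3G13460) encodes a YTH-domain protein that reads m6A in mRNA and lies in the chromosome 3 window above. Its model 1 took 79.5, 90.7 and 80.1% in Col-0 and 99.1, 98.3 and 94.0% in 35S::*FCA*, while model 4 went from 12.3, 9.16 and 14.3% to 0.49, 0.77 and 1.87% (diffSpliceDGE adjusted p = 0.0356, and 0.180 with 9 libraries). *BCAT3* (AT3G49680), a branched-chain aminotransferase, had model 2 at 0.65, 2.27 and 1.31% in Col-0 and 0% in 35S::*FCA* (adjusted p = 0.0219, and 0.210 with 9 libraries), the smallest change of the 27. Capitals mark the bases between both acceptors, 3 in *ECT2* (chr3:4387899-4387931, minus strand, TAIR10.1) and 6 in *BCAT3* (chr3:18422949-18422984, plus strand), which the gained model 1 keeps and the lost model leaves out, all of them coding.
ECT2 acceptors of models 1 and 4: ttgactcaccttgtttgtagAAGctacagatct
BCAT3 acceptors of models 1 and 2: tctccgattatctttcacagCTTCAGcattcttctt

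**Figure D5:**
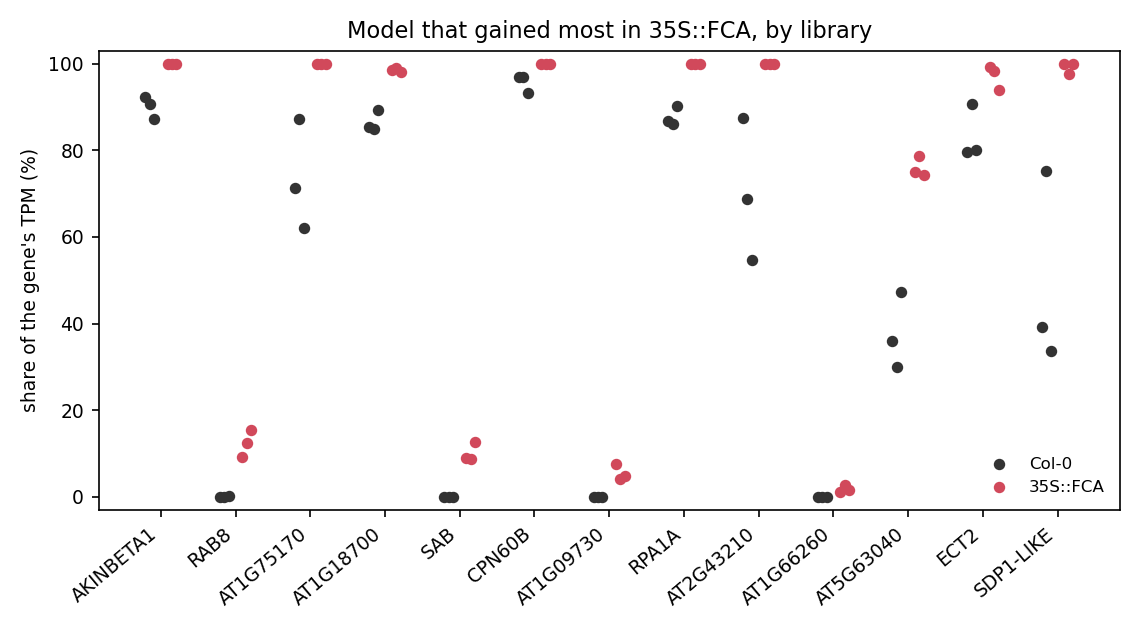
Share of a gene's TPM (percent) taken by the model that gained most in 35S::FCA, with 1 point per library, 3 Col-0 (black) and 3 35S::FCA (red), for the 10 genes with the smallest isoform p besides FCA and for AT5G63040, ECT2 and SDP1-LIKE. In all 13 genes the genotypes are separate, with many values at 0 or 100%, and AT5G63040 goes from 30.0 to 47.4% to 74.3 to 78.8%.

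The average length of transcripts was nearly the same in both genotypes. The TPM-weighted length of a gene's transcripts had a median of 100% of the gene's own mean in every library over 4558 genes with several models. Over the 4529 genes whose models differ in length, a mean chosen after seeing that median, it was 100.04% in Col-0 and 99.96% in 35S::*FCA* (SD 0.02 and 0.03, n = 3 each), a difference of -0.07 points with no overlap (p = 0.1 by an exact permutation test, two-sided, the lowest that 3 against 3 libraries allow). It reflects only the models in the index.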

How the data were processed

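RNA-seq was analysed from 3 Col-0 and 3 35S::*FCA* libraries. The authors quantified transcripts with kallisto, and the submitters' processing notes name kallisto and TAIR10 (the kallisto version was not given in the sources used here). The transcript tables also hold *FCA* and *FLC* entries with names of their own beside the numbered models. The deposited estimated counts (expected counts) and the deposited TPM per transcript model were used. Estimated counts were summed per locus and rounded, since reads matching several models or genes are divided between them.

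Genes were tested with edgeR 4.0.16 (R 4.3.3) after filterByExpr, with TMM normalization, glmQLFit and glmQLFTest on the 6 libraries and no covariate. Isoform use was tested with diffSpliceDGE at transcript level, taking the gene test, and Simes' method was an alternative. Adjusted p-values are Benjamini-Hochberg over all genes tested, with a threshold of 0.05. DESeq2 1.42.0, limma 3.58.1 on log2(TPM + 1) or log2(TPM + 0.1), other filters, all 9 libraries, a replicate block and fits without each library were the alternatives. Scripts were tested on simulated data.

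Named genes were the 10 smallest p in each direction among genes without overlap, where those that did not pass also needed a fold over 2. The 10 smallest isoform p and the 5 lowest and 5 highest symbol stems of at least 10 tested genes were named too. Any other gene was chosen after its values were seen. Members and lists were chosen with earlier results of these data known, and the lists of chlorophyll, Calvin cycle, greening, CIN, starvation, pollen and product names were added after values were seen. Counts of 3 or fewer were the floor, and intervals cover counting error only. Positions and sequences are from RefSeq TAIR10.1. Transposable element genes had no biotype of their own and were not analysed here.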

Additional observations from a re-analysis of the deposited data

How the results depend on the processing

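The number of called genes depended on the test. DESeq2 called 85 genes higher and 163 lower, edgeR without a filter on low counts 17 and 65, edgeR with all 9 libraries 91 and 192, limma with 1 TPM added 9 and 5, limma with 0.1 TPM added 7 and 7, and a threshold of 0.001 on adjusted p with a fold over 2 gave 1 and 0. All 8 genes were among the calls of the first 3 of these fits and 3 were among those of each limma fit. Fits lacking a library gave 1 to 2 higher calls and 0 to 1 lower ones. *FCA* had a log2 fold change of 0.77 in DESeq2 (adjusted p = 0.00898) and 0.76 with 9 libraries (adjusted p = 0.0320), both past the threshold, and *FLC* turned to 0.0163 and 0.0167 in the limma fits (adjusted p = 1.0), whose median over all genes was 0.06 or 0.07. The causes were not tested.

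Isoform calls went from 28 to 16 with Simes' method, to 16 with 9 libraries and to 23 to 57 with a library left out. The transcript length difference moved to -0.000103 points over genes of at least 5 TPM and to -0.0722 points for the mean. Same-numbered libraries of the genotypes correlated at 0.16, 0.20 and -0.11 over 11177 genes, so the numbers were not taken as pairs, and a replicate block left 1 gene higher, 0 lower and 0 isoform calls.

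Of 294 alternatives for the list medians, 264 stayed within the spread of libraries, and 6 lists changed sign in some alternative (chloroplast-encoded, mitochondria-encoded, cleavage and polyadenylation, cyclins, greening regulators and pseudogenes). With a library left out, medians ran from -0.44 to -0.26 for the Calvin cycle, -0.27 to -0.13 for MYB, 0.00057 to 0.0727 for WRKY, 0.0601 to 0.17 for the autonomous pathway, -0.55 to -0.32 for carbon starvation, -0.37 to -0.12 for the clock, -0.0242 to 0.0465 for cleavage and polyadenylation and -0.45 to 0.42 for mitochondria-encoded genes. They ran from 0.28 to 1.51 for defensins, -0.26 to -0.15 for fibrillins, -0.61 to -0.33 for oleosins, -0.19 to -0.0557 for late embryogenesis abundant genes, -0.10 to 0.22 for pseudogenes and -1.43 to -0.91 for seed storage, and for stems from 0.12 to 0.42 (AGP), -0.34 to -0.12 (ERD), 0.39 to 1.39 (LCR), 0.76 to 2.61 (RALFL) and -0.47 to -0.20 (TCP). For 20 named genes, 191 of 294 alternatives kept the side of the threshold, 59 lost and 44 gained a call, and 0 turned direction.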
